A study of Mus musculus with 8 samples.

Results

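The barcodes described here lie at the Pln and Mgp high end of a range among smooth muscle cells of the mouse ascending thoracic aorta. Each barcode (the droplet tag that stands for 1 cell) passed a filter for smooth muscle and was then scored. The score was the summed ln(1 + counts per 10000) of Pln, Mgp, Acan, Tnfrsf11b and Vcam1 minus that of Tnnt2, Ptprz1, Itih4, Bmp3 and Wif1. The top 25% by score, 845 of 3378 smooth muscle barcodes and of 48467 barcodes in the series, are called members. They were compared with the 1688 barcodes of the middle 50%, and the 845 of the lowest 25% are shown for the range. The smooth muscle filter asked for at least 500 genes, at most 10% mitochondrial UMIs (unique molecular identifiers, the counted molecules), under 10 haemoglobin UMIs, at least 1.5% of UMIs from Acta2, Tagln and Myh11, at most 5 Dcn UMIs and at most 1 UMI of Pecam1, Cdh5 and Ptprc together.

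The cells came from 3 young wild-type mice, with no treatment named in the labels and no other group. Strain and sex are not given in the sources used here. Tissue was digested with collagenase and elastase, and cells were hashtagged with antibodies that carry a DNA barcode and read by droplet 3′ RNA sequencing. Hashtags 1, 2 and 3 marked mice of 11, 12 and 13 weeks, and each is read here as 1 animal, so age and animal cannot be told apart. The hashtag barcodes that assign a droplet to its animal are the following, in the same order.

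Hashtag 1: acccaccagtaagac

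Hashtag 2: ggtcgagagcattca

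Hashtag 3: cttgccgcatgtcat

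Smooth muscle cells of the aortic media contract through actin and smooth muscle myosin and also make the elastic and collagen matrix of the wall. In the ascending aorta they descend from the neural crest and the second heart field. Pln encodes phospholamban, an inhibitor of the calcium pump of the sarcoplasmic reticulum. Mgp encodes matrix Gla protein, an inhibitor of vascular calcification, Acan the large proteoglycan aggrecan, Tnfrsf11b the decoy receptor osteoprotegerin, and Vcam1 an adhesion molecule that binds leukocyte integrins. On the low side of the score, Tnnt2 encodes cardiac troponin T, Ptprz1 a receptor tyrosine phosphatase, Itih4 a heavy chain of the inter-alpha-trypsin inhibitor family, Bmp3 a bone morphogenetic protein and Wif1 a secreted Wnt inhibitor. In RefSeq's annotation of GRCm38.p6, Pln lies at chr10:53337686-53345999, Mgp at chr6:136872435-136875823, Acan at chr7:79053226-79115099, Tnfrsf11b at chr15:54250619-54278484 and Vcam1 at chr3:116110020-116129688, and each is protein-coding. The libraries read the 3′ end of transcripts, and each value is a count per gene.

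The score had a single peak, and no gap separated members from the rest. Members began at 3.82 and reached 12.0, with a median of 4.99, against a median of 2.16 over all smooth muscle barcodes. Within 0.25 of the threshold lay 84 barcodes inside and 113 outside. Pln stood at 56.5 CPM (UMIs scaled to a common total) just inside and 38.7 just outside, and Ptprz1 at 95.5 inside and 156 outside. In this narrow band 5 of the 10 score genes ran against their direction in the score. Acan stood at 36.2 CPM inside and 41.0 outside, Vcam1 at 17.4 and 30.7, Itih4 at 86.9 and 42.1, Bmp3 at 31.8 and 22.8, and Tnnt2 at 75.3 and 70.6. The members are therefore described as a range of a score and not as a cell type.

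**Figure D1:**
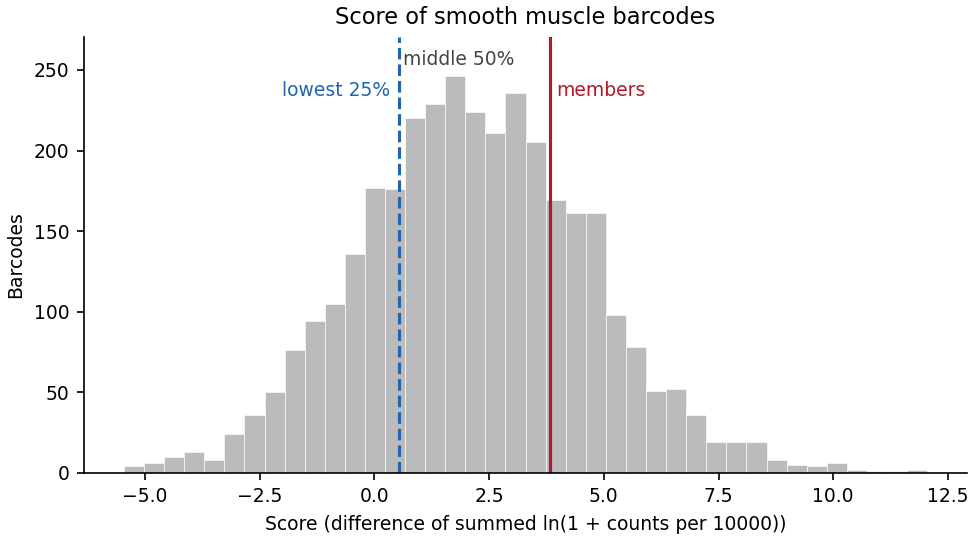
Histogram of the score (x axis, difference of summed ln(1 + counts per 10000)) over 3378 smooth muscle barcodes (y axis, barcodes per bin of the score). The solid line at 3.82 marks where members begin and the dashed line where the middle 50% begins; the distribution has 1 peak and no gap at either line.

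The 3 bins had similar depth. Members held a median of 7834 UMIs and 2644 genes, the middle 7938 UMIs and 2661 genes, and the lowest 25% 8399 UMIs and 2729 genes. Median mitochondrial shares were 8.41, 8.48 and 8.36%. Hashtags were weak: 757 of the 3378 barcodes had a single hashtag, 2040 had none and 581 had several. Members made up 26.5% of hashtag 1 (81 of 306 barcodes, exact 95% interval 21.6 to 31.8), 31.2% of hashtag 2 (62 of 199, 24.8 to 38.1) and 21.4% of hashtag 3 (54 of 252, 16.5 to 27.0). The intervals cover counting error only, and they overlap. With a hashtag caller based on ratios the shares were 19.6, 21.7 and 30%, in another order, so no order of the animals is read from them.

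The values of the score genes chose the members and are given as a description. Pln stood at 103, 77.6 and 88.9 CPM in members of hashtags 1, 2 and 3, against 26.7, 29.7 and 29.3 in the middle. Mgp stood at 24896, 29091 and 16892 CPM against 10702, 9995 and 9098. Mgp was the score gene that every member carried, while the other genes of the high side were found in some members only. Acan had 56.7, 56.0 and 52.4 CPM in members and 12.9, 14.2 and 17.9 in the middle. Tnfrsf11b had 86.6, 101 and 82.0 CPM against 33.6, 19.4 and 28.3. Of the 5 high-side genes Vcam1 varied most among the hashtags relative to its mean, with 163, 116 and 59.2 CPM in members against 22.4, 18.1 and 22.7.

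On the low side, Ptprz1 stood at 110, 103 and 86.6 CPM in members and 273, 362 and 327 in the middle. Wif1 had 47.8, 30.2 and 13.7 CPM in members and 116, 89.2 and 101 in the middle. Tnnt2 had 71.7, 36.6 and 43.3 CPM in members and 149, 147 and 82.2 in the middle. Bmp3, uneven among the hashtags, had 19.4, 2.15 and 25.1 CPM against 56.9, 53.0 and 41.5. Itih4 was likewise lower in members of each hashtag, with a mean of 52.3 CPM against 99.4. Over all barcodes, whatever their hashtag, Tnnt2 went from 421 CPM in the lowest 25% through 120 in the middle to 57.4 in members. The larger of these steps thus lay below the middle of the range and not at its high end.

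Few members carried the whole high side. Of 845 members, 150 (17.8%) had no UMI of Pln, Acan, Tnfrsf11b or Vcam1, 359 (42.5%) had 1 of these genes, 241 (28.5%) had 2 of them, 86 (10.2%) had 3 and 9 (1.07%) had all 4. A Pln UMI was found in 41.3% of members and 16.8% of the middle. After thinning each barcode to 2000 UMIs, which left out 6 members and 5 middle barcodes, the shares were 17.4% (14.9 to 20.1) and 5.53% (4.48 to 6.73). Fibroblast-side barcodes (997 with under 1.5% of UMIs from Acta2, Tagln and Myh11, over 5 Dcn UMIs and few endothelial or leukocyte UMIs, with a median of 5499 UMIs), which should lack Pln, had a Pln UMI in 0.626% after the same thinning. For Acan the thinned shares were 12.2% in members, 2.97% in the middle and 0.417% on the fibroblast side. Vcam1 differed, since 11.0% of members, 2.32% of the middle and 17.6% of fibroblast-side barcodes had a UMI of it. Its UMIs were also uneven: 10 of the 845 members held 35.9% of them. Mgp was not particular to smooth muscle, since 93.4% of fibroblast-side barcodes had a UMI of it after thinning. Its summed level was 13829 CPM on the fibroblast side, 9790 in the middle and 22835 in members.

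To see which score genes moved with the others, each gene was left out of the score in turn and the bins were drawn again from the other 9. The members-to-middle ratio of the omitted gene was then 3.01 for Vcam1, 2.56 for Acan, 2.29 for Pln, 1.77 for Mgp and 1.68 for Tnfrsf11b. On the low side it was 0.450 for Bmp3, 0.565 for Ptprz1, 0.667 for Itih4 and 0.671 for Wif1. Tnnt2 had a ratio of 1.06, since it went from 212 CPM in the lowest 25% to 169.5 in the middle and stood at 180.1 in members. The genes had been picked from these same cells, so the ratios are a description.

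**Figure D2:**
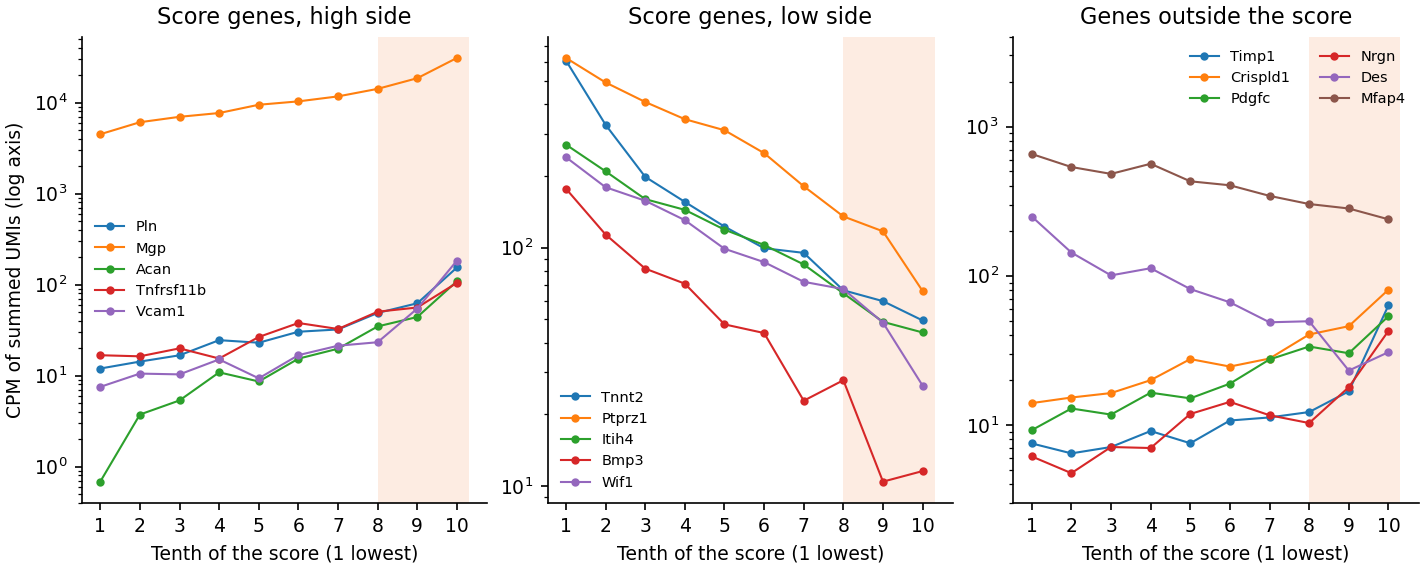
Levels in 10 equal steps of the score (x axis, step 1 lowest; y axis, CPM of summed UMIs, log axis) for the 5 high-side score genes, the 5 low-side score genes and 6 genes outside the score. Shading begins in step 8, where members begin; Timp1 stayed between 6.44 and 16.8 CPM up to step 9 and stood at 63.2 in step 10, while Mfap4 went from 655 to 239.

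Genes other than the 10 score genes and the 7 that the filter names singly were tested on UMI counts summed per hashtag and bin (9 sums, n = 3 hashtags per bin), with edgeR's quasi-likelihood test, the hashtag as a block and Benjamini-Hochberg adjustment. Haemoglobin and mitochondrial genes, which the filter limits as sums, stayed in the fit, and nothing is read from them. The score genes came from an earlier comparison within these cells, so a gene that follows them is not independent evidence of a separate state. Of 7101 genes tested, 90 (1.27%) were called at an adjusted p under 0.05. Of these, 56 (0.789% of genes tested) were higher in members and 34 (0.479%) lower. An unadjusted p under 0.05 was found for 696 genes (9.8%), and for 1018 genes (14.3%) the 3 values of members did not overlap those of the middle. The median log2 fold over all genes was -0.00, and 21 called genes differed by at least 1 on the log2 scale. 89 of the 90 had the same direction in all 3 hashtags, which is largely set by a call made on these same sums. Hashtag 1 weighed most: without it 21 of the 90 calls were kept, without hashtag 2 50 and without hashtag 3 51. Without hashtag 1 the counts were 12 higher and 10 lower, and without hashtag 2 37 higher and 32 lower. 16 genes kept their call without each hashtag in turn, 8 higher (Cd200, Fabp4, Fn1, Ier2, Pdgfc, S100a4, Serpine2 and Timp1) and 8 lower (Cnn1, Fbxl22, Igfbp2, Mfap4, Myl9, Ppp1r14a, Synpo2 and Tpm1). The DESeq2 Wald test, an alternative on the same sums, kept 12 of the 90 calls. They were Cd200, Cst3, Fbxl22, Ier2, Mfap4, Myl9, Ppp1r14a, S100a4, Serpine2, Synpo2, Timp1 and Tpm1. Every other edgeR call given below was lost with DESeq2, those of Pdgfc, Fn1, Crispld1, Des and Cnn1 included.

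3 secreted protease inhibitors were higher in members. Timp1, a tissue inhibitor of metalloproteinases, had the largest rise among the named genes that were tested. It lies at chrX:20870166-20874737. It stood at 52.2, 64.6 and 18.2 CPM in members of hashtags 1 to 3 and at 8.63, 12.9 and 6.61 in the middle. The groups did not overlap, and the log2 fold was 2.25 ± 0.31 (SE, n = 3; edgeR adjusted p = 3.26e-06). The rise was carried by few barcodes, since 10 members held 43.3% of its UMIs and 111 of 845 had any. Over all barcodes Timp1 had 6.76, 9.57 and 35.1 CPM from the lowest 25% to members, and the fibroblast-side barcodes had 129. Serpine2, which encodes protease nexin-1, an inhibitor of thrombin and plasminogen activators, had 951, 1008 and 875 CPM against 720, 713 and 670. Its difference was small and even, at 0.43 ± 0.06 on the log2 scale (adjusted p = 5.73e-06). Cst3, the secreted cysteine protease inhibitor cystatin C, was also higher, by 0.28 ± 0.04 on the log2 scale (adjusted p = 1.44e-05), and its adjusted p without hashtag 1 was 0.053 (log2 0.24). Of the 16 tested metalloproteinases and inhibitors these 3 were higher, none was lower and 13 were not called, and their median log2 fold was 0.06.

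3 growth factor transcripts were also higher. Pdgfc, which encodes a ligand of the PDGF receptors, had 37.3, 58.2 and 43.3 CPM in members and 11.2, 19.4 and 14.2 in the middle. The groups lay apart in every hashtag, with a log2 fold of 1.62 ± 0.28 (adjusted p = 0.000117). Over all barcodes it was 1.09, and among those with over 10 to 20% mitochondrial UMIs 0.64 (edgeR adjusted p = 0.74), with no call. The call of Pdgfc was also lost at a smooth muscle share of at least 3%. Fgf2, the basic fibroblast growth factor, rose by 0.60 ± 0.13 on the log2 scale (adjusted p = 0.00306), and Pdgfa by 0.47 ± 0.11 (adjusted p = 0.0163). Both calls were lost without hashtag 1 (log2 0.68 and 0.55, adjusted p = 0.062 and 0.16) and without hashtag 2 (0.40 and 0.29, adjusted p = 0.27 and 0.50). In the list of 18 tested IGF, FGF and PDGF genes these 3 were higher and Igfbp2, an IGF-binding protein, was lower, with a median log2 fold of 0.19. Igfbp2 had 95.5, 45.2 and 52.4 CPM against 149, 172 and 124 (log2 fold -1.10 ± 0.20, adjusted p = 0.000267). Among barcodes with no or several hashtags its log2 fold was 0.07 and among those with over 10 to 20% mitochondrial UMIs 0.61, so its direction was not seen outside the tested barcodes.

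Fn1 and Smoc1, both of the matricellular list, were higher as well. Fn1, which encodes fibronectin, had 811, 1101 and 677 CPM in members and 632, 583 and 479 in the middle. Its log2 fold was 0.59 ± 0.09 (adjusted p = 1.08e-05), and among barcodes with at least 3% smooth muscle UMIs it was -0.15. Smoc1, a calcium-binding matrix protein that modulates BMP signalling, rose by 0.62 ± 0.13 on the log2 scale (adjusted p = 0.00405), a call lost without hashtag 2 (log2 0.41, adjusted p = 0.33). Of the 15 tested matricellular genes Ccn5, a growth-inhibitory CCN protein, was lower. Ccn5 had 7.46, 10.8 and 6.84 CPM against 31.9, 29.7 and 18.9. Its log2 fold was -1.70 ± 0.38 (adjusted p = 0.00601). It was -0.96 over all barcodes and -1.43 without hashtag 1 (adjusted p = 0.34), and its sign turned, to 0.61, among barcodes with over 10 to 20% mitochondrial UMIs. Crispld1, a secreted protein with a cysteine-rich domain, had 55.2, 62.5 and 91.1 CPM in members and 35.4, 20.7 and 15.1 in the middle. Its log2 fold was 1.48 ± 0.27 (adjusted p = 0.000292), falling to 0.99 without hashtag 3 (adjusted p = 0.061).

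S100a4 and Cd200 were among the steadier differences. S100a4, a small calcium-binding protein of motile cells, had 637, 517 and 615 CPM in members and 404, 376 and 361 in the middle (log2 fold 0.64 ± 0.08, adjusted p = 1.24e-07). Cd200, a surface protein that restrains myeloid cells, had 866, 926 and 818 CPM against 637, 666 and 670 (log2 fold 0.40 ± 0.07, adjusted p = 4.75e-05). In neither gene did the groups overlap. S100a4 kept its call in every alternative, while Cd200 lost its call with the score from thinned counts and at a smooth muscle share of at least 3%. Ank, a transporter of pyrophosphate, which inhibits mineral formation, rose by 0.77 ± 0.17 on the log2 scale (adjusted p = 0.00461). It was the only one called of 9 tested chondrogenic and calcification genes, and its call was lost without hashtag 1 (0.91, adjusted p = 0.056) and without hashtag 2 (0.57, adjusted p = 0.20). Of 14 valve and chondrocyte markers, Postn and Scx were tested, and neither was called by edgeR or DESeq2 or had an unadjusted p under 0.05. Other markers of this list were too low for the test. Over all barcodes Sox9, a transcription factor of cartilage, stood at 12.8 CPM in the middle (exact Poisson interval 10.9 to 14.8, counting error only) and 19.9 in members (16.7 to 23.6). The matrix gene Comp stood at 6.09 and 10.5 CPM and Cytl1, a secreted protein of cartilage, at 5.37 and 16.1, while fibroblast-side barcodes had 65.2, 82.8 and 606 CPM of these 3 genes. Col2a1 had 1 UMI in the middle and 2 in members.

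Contractile genes made up 8 of the 34 lower genes. Of 32 tested, these 8 were lower, 1 (Mustn1) was higher and 23 were not called. 26 of the 32 had a negative sign, and the median log2 fold was -0.14 against -0.00 over all genes. Summed over the list and all barcodes, contractile transcripts went from 48025 CPM in the lowest 25% through 44667 in the middle to 40242 in members. Myl9, a regulatory myosin light chain, had 2935, 2975 and 2741 CPM in members and 3418, 3746 and 3541 in the middle. Its log2 fold was -0.30 ± 0.04 (adjusted p = 5.43e-06). Cnn1, which encodes calponin, had 1333, 1191 and 1276 CPM against 1513, 1493 and 1664 (log2 fold -0.29 ± 0.05, adjusted p = 0.00039). Ppp1r14a, an inhibitor of myosin phosphatase, had 781, 679 and 704 CPM against 964, 992 and 983 (log2 fold -0.43 ± 0.06, adjusted p = 6.01e-06). In these 3 genes every member value lay below every middle value.

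Synpo2, an actin-bundling protein, was lower by 0.39 on the log2 scale (log2 fold -0.39 ± 0.06, adjusted p = 3.14e-05), and the tropomyosin gene Tpm1 had a log2 fold of -0.30 ± 0.04 (adjusted p = 5.43e-06). Fbxl22, an F-box protein of muscle, had 455, 334 and 433 CPM against 628, 698 and 530 (log2 fold -0.58 ± 0.09, adjusted p = 7.4e-06). Flna, which encodes filamin A, had a log2 fold of -0.24 ± 0.05 (adjusted p = 0.00205), and Pdlim3 one of -0.32 ± 0.09 (adjusted p = 0.0489). Leaving out hashtag 1 or 3 lost the call of Flna (adjusted p = 0.12 and 0.06), and leaving out any hashtag lost that of Pdlim3. Des, the intermediate filament of muscle, was the largest contractile difference at -1.44 ± 0.25 (adjusted p = 0.000235). Its groups overlapped, with 52.2, 12.9 and 34.2 CPM in members and 120, 133 and 34.9 in the middle, and leaving out hashtag 1 or 2 lost the call (adjusted p = 0.062 and 0.051). Over all barcodes Des went from 178 CPM in the lowest 25% through 78.5 to 29.8, a log2 difference of -1.39, but with a score from thinned counts its difference was 0.28. Mustn1, a small nuclear protein of muscle, was higher by 0.38 ± 0.08 on the log2 scale (adjusted p = 0.00572), with overlapping groups and no call without hashtag 1 or 2 (0.40 and 0.23).

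Acta2, Tagln and Myh11 were part of the filter and are given without a test. Acta2 had 13488, 13083 and 12387 CPM in members and 14727, 15705 and 15326 in the middle. Myh11 had 4108, 3695 and 4443 CPM against 5442, 4648 and 5574. The 3 genes together made up 2.71% of the summed UMIs of members, 3.16% of those of the middle and 3.53% of those of the lowest 25%. Raising the minimum share to 3% left 8 genes higher and 7 lower, with log2 folds of -0.04 for Myl9, -0.15 for Cnn1 and -0.14 for Ppp1r14a. The contractile calls of Myl9, Cnn1, Ppp1r14a, Synpo2, Tpm1 and Flna were lost there, and those bins held as few as 21 barcodes. The same calls were also lost among barcodes with over 10 to 20% mitochondrial UMIs. In that set Myl9 stood at -0.15, Cnn1 at -0.18 and Ppp1r14a at -0.26 (edgeR adjusted p = 0.46, 0.46 and 0.16). With the score from thinned counts Cnn1, Ppp1r14a, Tpm1 and Flna lost their calls, while Myl9 and Synpo2 kept theirs.

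**Figure D3:**
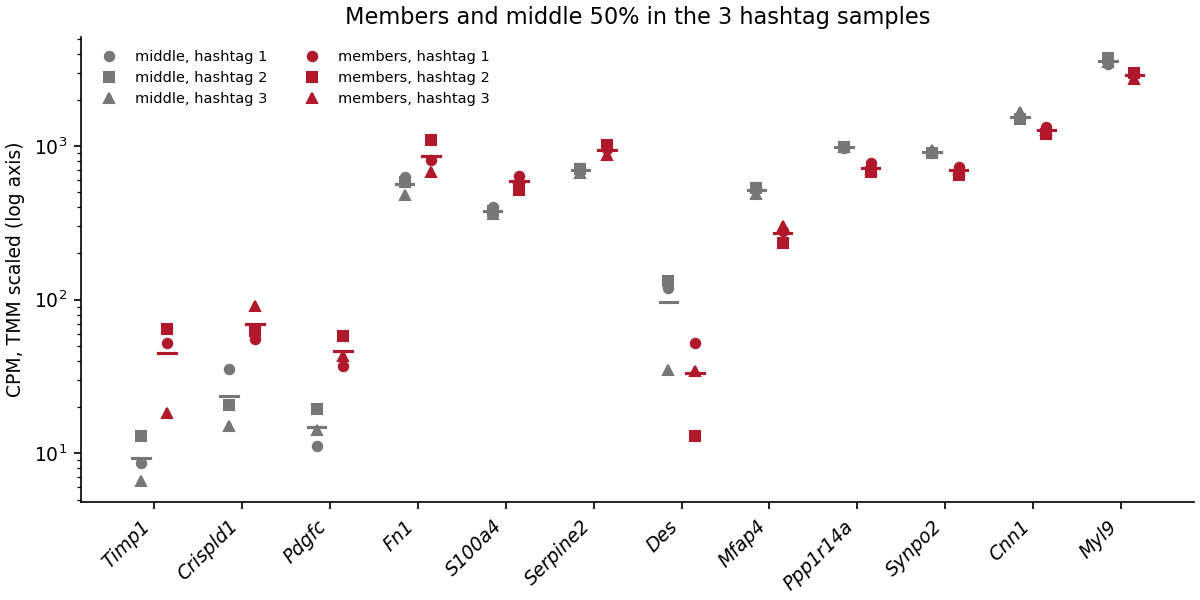
CPM with TMM scaling (y axis, log axis) of 12 genes (x axis) in the 3 hashtag samples; grey marks are the middle 50%, red marks members, each mark is 1 hashtag and each bar the mean of 3. Members of hashtag 3 had 18.2 CPM of Timp1, above the highest middle value of 12.9, and for Des the groups overlapped.

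Among matrix genes of the elastic lamina 1 was called. Mfap4, a microfibril-associated protein that binds elastin, was lower, with 281, 235 and 301 CPM in members and 542, 533 and 485 in the middle. Its log2 fold was -0.93 ± 0.09 (adjusted p = 3.05e-10), and no alternative ended its call. It was the only gene called of 17 elastic fibre and microfibril genes tested, whose median was -0.04. Eln, which encodes elastin, had 1529, 1984 and 1458 CPM against 1574, 1848 and 1642 (log2 fold -0.03 ± 0.06, adjusted p = 0.942), and over all barcodes the log2 difference was 0.14. None of 10 interstitial collagens was called by edgeR or DESeq2, and 3 had an unadjusted p under 0.05. Col3a1 had 1097, 1206 and 1053 CPM against 1188, 1352 and 1248 (log2 fold -0.17 ± 0.06, adjusted p = 0.213). None of 16 basement membrane genes was called by either tool, 5 had an unadjusted p under 0.05, and their median was 0.07. Among 13 proteoglycan genes and their proteases, Sulf1, an extracellular sulfatase of heparan sulfate, had a log2 fold of 0.35 ± 0.10 (adjusted p = 0.042) and Ogn, the small proteoglycan osteoglycin, one of -0.31 ± 0.06 (adjusted p = 0.00123). Leaving out hashtag 1 or 2 lost the call of Sulf1 (0.30 in both), and leaving out hashtag 1 that of Ogn (-0.35, adjusted p = 0.077).

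Other calcium genes were tested because Pln is itself a calcium regulator. Of 20 tested genes of calcium stores and channels, none was called lower, with a median of 0.04, and the higher ones included Atp2b1 and S100a6. Atp2b1, the calcium pump of the plasma membrane, had 131, 116 and 118 CPM against 91.4, 76.3 and 84.0 (log2 fold 0.54 ± 0.14, adjusted p = 0.0282). Leaving out any 1 hashtag lost this call, with log2 folds between 0.51 and 0.55. S100a6 rose by 0.22 ± 0.05 on the log2 scale (adjusted p = 0.012) and was lost without hashtag 1 (0.20, adjusted p = 0.21). None of 3 tested cardiac-type muscle genes and none of 7 potassium channel genes was called by edgeR or DESeq2, with 1 and 2 at an unadjusted p under 0.05.

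In several other lists 0 or 1 gene was called, where 1.27% of all genes tested were. Of 30 tested BMP and TGF-beta genes, 1 was lower, none was higher and 21 had a positive sign, with a median of 0.20. The lower one was Bmpr1b, a BMP receptor, at -1.01 ± 0.28 (adjusted p = 0.0462), which was -0.47 over all barcodes, lost its call without hashtag 1 or 3 (-0.65 and -1.11) and turned to 0.012 with over 10 to 20% mitochondrial UMIs. Of 16 Wnt genes, the Wnt modulator Sfrp2 was lower at -0.43 ± 0.11 (adjusted p = 0.0246), but over all barcodes its difference was 0.05, and leaving out hashtag 1 or 2 lost its call (-0.52 and -0.30). Among 14 adhesion, cytokine and NF-kB genes, the macrophage growth factor Csf1 was higher at 1.05 ± 0.27 (adjusted p = 0.0246), but at 0.34 over all barcodes, with no call without hashtag 1 or 3 (0.86 and 1.05). Csf1 had 30.8 CPM in members over all barcodes and 132 in fibroblast-side barcodes. None of 8 Notch genes, 16 YAP and TEAD targets, 19 vasoactive receptor and RGS genes or 22 outflow tract and positional transcription factors was called by edgeR or DESeq2, and 0, 3, 5 and 4 of them had an unadjusted p under 0.05. Among these factors Mef2a, the most abundant, had a log2 fold of 0.30 ± 0.09 (adjusted p = 0.0661). 1 of 27 integrin and focal adhesion genes, Itga8, was lower (-0.24 ± 0.05, adjusted p = 0.00601), and not without hashtag 1 or 3 (-0.22 and -0.21).

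Ier2 and Egr1, immediate early genes that respond within minutes to growth factors and stress, were higher. Ier2 had 79.1, 110 and 57.0 CPM against 36.2, 36.2 and 31.2, with no overlap and a log2 fold of 1.21 ± 0.20 (adjusted p = 5.33e-05), or 0.64 over all barcodes. Egr1 was higher by 0.43 ± 0.11 (adjusted p = 0.0397) and not called without hashtag 1 or 2 (0.45 and 0.27), and with the thinned score it was -0.035. The heat shock gene Hsph1 was lower, at -0.60 ± 0.14 (adjusted p = 0.0078), and not called without hashtag 1 (-0.42). Of 25 immediate early and heat shock genes 22 were not called, and the median was 0.04.

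**Figure D4:**
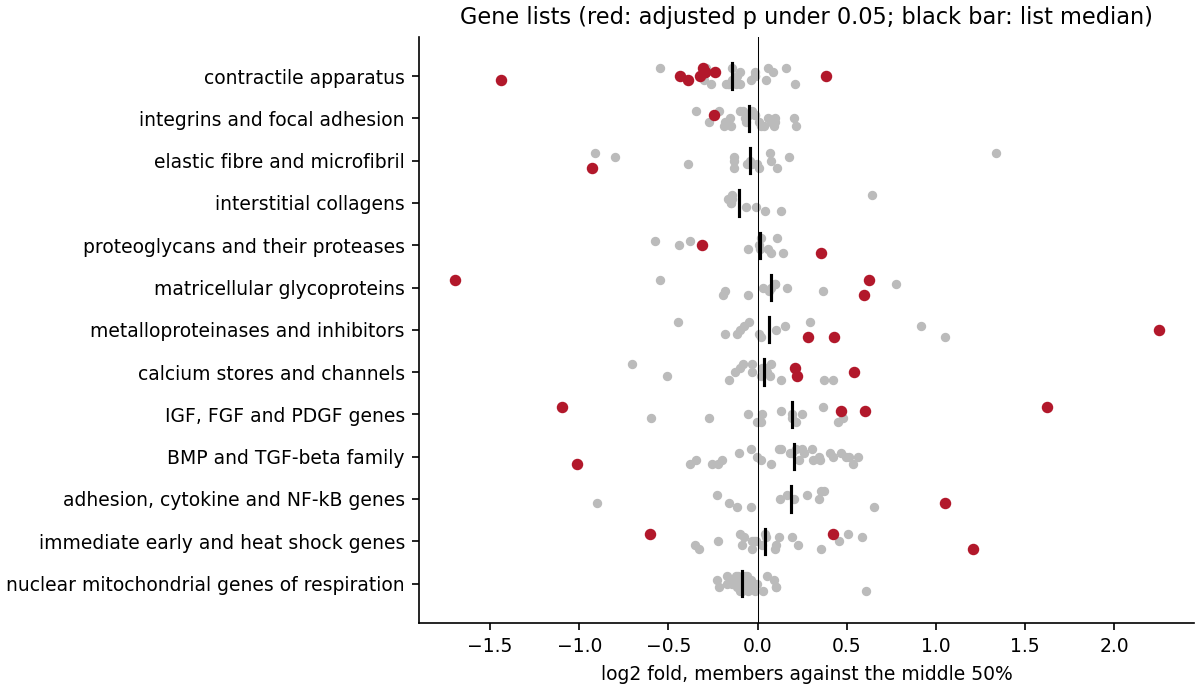
Log2 fold of members against the middle 50% (x axis) for the tested genes of 13 lists (y axis); each point is 1 gene, red points were called at an adjusted p under 0.05 and the black bar is the median of the list. The contractile list has 8 red points on the lower side and 1 on the higher side, and the respiration list has none.

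The other named higher genes had larger differences in the tested barcodes than over all barcodes. Dab2, an endocytic adaptor, had a log2 fold of 1.41 ± 0.35 (adjusted p = 0.0204) in the test and 0.49 over all barcodes. Etl4 had 1.31 ± 0.32 (adjusted p = 0.0157) against 0.42, Dock5, an activator of Rac, 1.32 ± 0.31 (adjusted p = 0.012) against 0.61, and Rgs17, a regulator of G protein signalling, 1.48 ± 0.36 (adjusted p = 0.0186) against 0.89. The gap was smaller for Nrgn, the calmodulin-binding protein neurogranin, with 1.40 ± 0.35 (adjusted p = 0.0204) against 1.32. Nrp1, a receptor for semaphorins and VEGF, had 1.27 ± 0.28 (adjusted p = 0.00636) against 0.96, and Pdzrn4 0.98 ± 0.27 (adjusted p = 0.0497) against 0.74. Leaving out hashtag 1 lost the call of Dab2, Etl4, Dock5, Rgs17, Nrgn, Nrp1 and Pdzrn4, at log2 folds of 1.41, 1.55, 1.31, 1.96, 1.79, 0.78 and 0.82. Leaving out hashtag 2 lost all of these calls but that of Nrp1 (1.30), and the others stood at 1.20, 1.23, 1.21, 1.46, 1.15 and 0.86. Without hashtag 3, Etl4, Rgs17 and Nrgn were not called (1.20, 1.06 and 1.33). Over all barcodes, Dab2 had 19.3 CPM in members, 75.9 on the fibroblast side and 294 on the leukocyte side (40 barcodes chosen by Ptprc). Etl4 and Nrp1 had 22.4 and 41.3 CPM in members, and 252 and 546 on the endothelial side (180 barcodes chosen by Pecam1 and Cdh5). Nrgn had 26.6 CPM in members and 31.0 on the endothelial side. Rgs17, Dock5 and Pdzrn4 were higher in members than on any of these sides. The part of other cells' RNA was not tested.

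Among the lower genes, Galnt16, a glycosyltransferase of mucin-type O-glycosylation, had 4.48, 19.4 and 6.84 CPM in members and 32.8, 41.4 and 30.2 in the middle. Its log2 fold was -1.84 ± 0.35 (adjusted p = 0.000599), -1.14 over all barcodes and -1.43 without hashtag 1 (adjusted p = 0.19). Xk, a membrane protein, stood at -1.04 ± 0.23 (adjusted p = 0.00591) in the test and -0.74 over all barcodes. Optc, the small proteoglycan opticin, stood at -0.72 ± 0.16 (adjusted p = 0.00491), and Cdkn1a, the cell cycle inhibitor p21, at -0.66 ± 0.15 (adjusted p = 0.0116). Gadd45g, a stress-response gene, stood at -0.78 ± 0.20 (adjusted p = 0.0254) and Dtna, a dystrobrevin, at -0.62 ± 0.16 (adjusted p = 0.0293). Without hashtag 1, Optc, Cdkn1a, Gadd45g and Dtna were not called (-0.63, -0.61, -0.81 and -0.37). Without hashtag 2 Cdkn1a was not called (-0.54), and without hashtag 3 Xk, Optc, Gadd45g and Dtna were not (-0.79, -0.68, -0.66 and -0.68). The sign turned for Cdkn1a with the thinned score (0.0090), for Gadd45g at a smooth muscle share of at least 3% (0.10) and for Dtna with over 10 to 20% mitochondrial UMIs (0.16).

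The same bins were drawn among barcodes outside the test, 648 members and 1329 middle barcodes with no or several hashtags. These share the animals and libraries of the test, so they are not new replicates. Of the 90 called genes, 87 (96.7%) had the same sign there, against 59.0% of all 7101 genes. The median size of the difference was 0.56 on the log2 scale in the test and 0.32 outside it. Timp1 stood at 1.70, Nrgn at 1.27, Crispld1 at 1.13 and Des at -1.40 outside the test. Dab2 (0.18), Etl4 (0.12) and Csf1 (0.13) were close to 0 there, and Igfbp2, Sfrp2 and Ifi27l2a had the opposite sign.

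**Figure D5:**
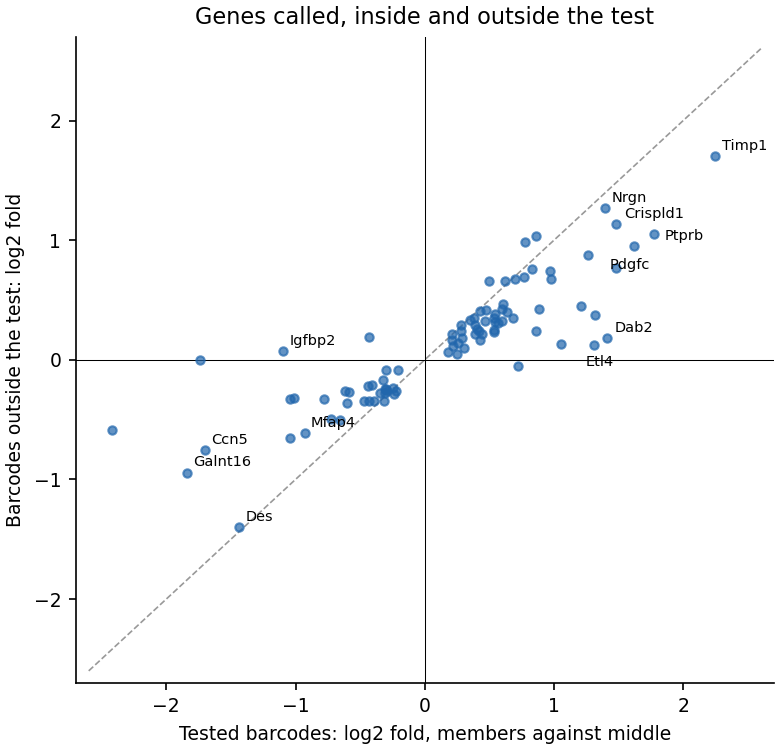
Log2 fold of members against the middle 50% for the 90 called genes, in the tested single-hashtag barcodes (x axis) and in barcodes with no or several hashtags (y axis); each point is 1 gene and the dashed line marks equal values. 87 points lie on the same side of 0 in both, most of them closer to 0 on the y axis.

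A further set had over 10 to 20% mitochondrial UMIs and otherwise passed the same filter. Its 3166 barcodes had a median of 6512 UMIs, and 144 members and 328 middle barcodes carried a single hashtag. There 24 of 5382 genes (0.446%) were called, and 77 of the 83 called genes tested in both sets had the same sign (92.8%, against 55.4% of all genes tested in both). The 13 genes called in both sets were Cd200, Cdkn1a, Crispld1, Cst3, Dbp, Des, Egr1, Fn1, Mfap4, Ogn, S100a4, Serpine2 and Tcap. Crispld1 stood at 1.91 and Mfap4 at -0.88 in that set. Timp1 did not pass the filter on low counts there.

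Markers of other cell types were checked for each bin. Summed endothelial markers reached 632, 569 and 1116 CPM in members and 435, 405 and 457 in the middle, and the groups did not overlap. Of 4 endothelial markers tested, Fabp4, a fatty acid carrier of capillary endothelium, and Ptprb, an endothelial phosphatase, were higher. Fabp4 stood at 496, 442 and 930 CPM against 323, 314 and 368 (log2 fold 0.86 ± 0.13, adjusted p = 7.19e-06), at 0.44 over all barcodes and at -0.073 with over 10 to 20% mitochondrial UMIs. Over all barcodes Fabp4 gave 374 of the 485 CPM of summed endothelial markers in members. The next most abundant, Flt1 and Eng, stood at 40.1 and 28.8 CPM in members and 37.2 and 25.7 in the middle. Flt1 had an unadjusted p under 0.05 in the edgeR test and was not called. Ptprb stood at 23.9, 17.2 and 18.2 CPM against 4.31, 9.05 and 4.72 (log2 fold 1.77 ± 0.45, adjusted p = 0.0246), a call lost without hashtag 3 (1.72, adjusted p = 0.14). Summed leukocyte markers ranged from 24.8 to 375 CPM in members and from 40.0 to 79.5 in the middle. Without the clusters led by immune or endothelial genes, 66 genes were higher and 44 lower, Fabp4 stood at 0.70 and Timp1 at 2.33. Pecam1, Cdh5 and Ptprc were limited to 1 UMI by the filter. The hashtag caller marks a barcode with several hashtags as a doublet (a droplet with more than 1 cell). It marked 581 of the 3378 barcodes, 162 of them members. They were left out of the test but kept in the bins, in the values over all barcodes and in the set outside the test. Doublets of cells with the same hashtag were not called, so the part of mixed droplets in the result was not tested beyond these values.

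In sum, fibroblast and pericyte markers overlapped between the bins. Summed fibroblast markers stood at 855 to 927 CPM in members and 833 to 954 in the middle, pericyte markers at 837 to 1234 and 978 to 1097, and erythroid markers, which did not overlap, at 459 to 468 and 436 to 447. The 4 erythroid markers in the fit are haemoglobin genes, which the filter holds under 10 UMIs in sum, so their values are given with no test. No fibroblast or pericyte marker among 7 and 7 tested was called by edgeR or DESeq2, and 3 (Cd34, Ly6c1 and Mfap5) and 1 (Rgs5) had an unadjusted p under 0.05. Over all barcodes Gsn gave 459 of the 878 CPM of fibroblast markers in members. Cd34 stood at 29.4 CPM in members (25.4 to 33.7) and 12.5 in the middle (10.7 to 14.5), and Ly6c1 at 7.53 and 3.92. Mfap5 was lower in members, at 155 and 187, and Lum (10.5 and 10.0) and Pdgfra (11.2 and 12.8) differed little. Valve and chondrocyte markers stood at 904 to 1045 CPM in members and 860 to 961 in the middle, where Postn, a matrix protein of valves and vessels, supplied most. Cardiomyocyte markers stood at 77.2 to 122 CPM and 97.5 to 112, and adipocyte and mesothelial markers at 8.28 to 24.99 and 6.47 to 11.3. Leukocyte-side barcodes (40, median 4865 UMIs) had 2981 CPM of Mgp and 0 UMIs of Pln, and the part of RNA from outside the cell in the Mgp values was not tested.

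Clustering without the 10 score genes gave 8 clusters, and members lay mainly in the 2 largest of them. Cluster 0, led by Piezo2, Spp1, Dpp10 and Crispld1, held 928 barcodes (27.5% of all). Of these 38.4% were members (35.2 to 41.6), or 42.1% of all members. Cluster 2, led by Lgals3, Timp1 and S100a4, held 1163 barcodes (34.4% of all), 31.3% of them members, or 43.1% of all members. In cluster 1, led by Psd, Des and Igfbp2, 5.02% of 876 barcodes were members. The highest member share, 38.7%, was in cluster 7, with 31 barcodes, led by Cd36, Gpihbp1 and Fabp4. Cluster 3, led by Rgs5, Adamtsl1 and Prrx2, had 29.6% of 115 barcodes. Clusters 4, 5 and 6 had 6.32, 15.8 and 22.6%. Acan stood at 45.5 CPM in cluster 0, 29.5 in cluster 2 and 3.34 in cluster 1. Vcam1 was highest in cluster 2, at 65.8 CPM against 27.0 in cluster 0. At a resolution of 0.3 the largest cluster held 25.2% members and the 4 smaller ones 7.29 to 37.5%, and at 1.0 a cluster of 492 barcodes led by Spp1, Timp1 and Nrgn held 56.7% (279 members). No resolution gave a cluster made up of members alone.

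The genes most like the score were found by Spearman correlation over 3366 barcodes thinned to 2000 UMIs, among 2632 genes. The score itself was that of the unthinned counts. The highest were Serpine2 (0.22), Cst3 (0.22), S100a4 (0.19), Cd200 (0.17) and Bgn (0.17), the last of which encodes the small proteoglycan biglycan. The lowest were Acta2 (-0.31), Myh11 (-0.28), Tpm1 (-0.24), Flna (-0.21) and Mfap4 (-0.21). Acta2 and Myh11 were part of the filter that chose the barcodes, so nothing is read from their place. The barcodes share libraries and animals, and the correlations are weak, so they describe an order of genes and no more.

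The promoters of genes that moved in opposite directions were searched for the CArG box, the motif bound by serum response factor, which drives contractile genes. The 250 bases before the start are shown for Pln, which marks the members, and for Pdgfc (higher) and Fbxl22 (lower), which held a CArG box, from RefSeq on GRCm38.p6. The coordinates are chr10:53337436-53337685 (+) for Pln, chr3:81036166-81036415 (+) for Pdgfc and chr9:66514594-66514843 (-) for Fbxl22. Capitals mark the CArG box, which begins 17 bases before the start in Pdgfc and 222 in Fbxl22.

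Pln: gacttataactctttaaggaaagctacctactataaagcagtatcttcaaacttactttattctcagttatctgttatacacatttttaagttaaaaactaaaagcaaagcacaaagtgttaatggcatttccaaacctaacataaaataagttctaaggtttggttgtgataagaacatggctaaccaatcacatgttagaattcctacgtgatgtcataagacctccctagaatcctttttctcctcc

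Pdgfc: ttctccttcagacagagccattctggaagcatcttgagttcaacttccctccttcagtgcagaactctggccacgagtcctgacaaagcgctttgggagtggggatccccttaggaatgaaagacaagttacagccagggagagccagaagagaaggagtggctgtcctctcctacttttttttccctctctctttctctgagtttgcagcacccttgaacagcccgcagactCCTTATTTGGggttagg

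Fbxl22: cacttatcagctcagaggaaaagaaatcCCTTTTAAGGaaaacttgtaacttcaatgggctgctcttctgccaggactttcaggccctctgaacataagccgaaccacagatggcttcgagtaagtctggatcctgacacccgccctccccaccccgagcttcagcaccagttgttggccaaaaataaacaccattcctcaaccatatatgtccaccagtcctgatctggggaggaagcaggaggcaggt

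The window of Pln held no CArG box by these letters. Of the called genes with a promoter in the table, 1 of 34 higher genes (Pdgfc) and 2 of 27 lower genes (Myl9 and Fbxl22) held one, against 1.72% of the 5699 tested genes with a promoter and 1.62% of 27025 promoters of the same length. The AP-1 motif (TGACTCA or TGAGTCA, which are each other's reverse complement) was found in 2 of 34 higher genes (Gja1 and Rgs17) and 3 of 27 lower genes, against 3.67% of the tested genes and 5.16% of all promoters. The directions were not compared by a test, and a match describes letters and not binding.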

How the data were processed

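The file used holds the authors' unnormalized UMI counts of 32285 genes and 3 hashtags in 48467 barcodes. Its header names Cell Ranger 6.0.1, and per the submitters' processing notes mm10 and Seurat 4.0.5 were also used; which annotation served is not stated. The 4 gene expression and 4 hashtag libraries share 1 barcode suffix, so barcodes found in several libraries could not be counted. The filter kept 45125 barcodes with at least 500 genes, 7154 of them with at most 10% mitochondrial UMIs, and 3378 after the remaining steps. Hashtags were called with HTODemux (Seurat 5.3.0, centred log ratios per hashtag, positive quantile 0.99) on the 7154 barcodes.

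Counts were summed per hashtag and bin, giving 371780 to 1181356 UMIs per sum, and fitted with edgeR 4.0.16 in R 4.3.3 (glmQLFit, TMM, filterByExpr, hashtag as a block). The block comes from bins of the same animals. Same-hashtag deviations of members and middle correlated at 0.03, 0.05 and 0.04 over 2890 genes. Those of different hashtags correlated at -0.07 to 0.04, so sums of the same hashtag were hardly more alike than others. Whether the spread between the sums reflects the animals or the sampling of cells was not tested. Cells are not replicates, and with 3 hashtags p-values measure the spread between these sums. CPM by hashtag carries TMM scaling, and CPM over all barcodes is scaled to summed UMIs. 17 genes that the score or the filter names singly were left untested. DESeq2 1.42.0 was an alternative. Clustering used scanpy 1.11.5 (2000 variable genes, 30 principal components, 15 neighbours, resolution 0.5).

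Named genes were the score genes, the 12 largest called differences in each direction with at least 10 UMIs in both bins, a mean of 20 CPM and the same direction in every hashtag, the called genes with the largest changes of each list, and Acta2, Tagln, Myh11, Cnn1, Myl9 and Eln; S100a4, Cd200, Cst3, Synpo2, Tpm1, Flna, Pdlim3, Fbxl22 and Pdgfa were added after their values were seen. Some genes that the rule names are not reported here. The members, the gene lists and the score genes were chosen with earlier results of these data known.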

Additional observations from a re-analysis of the deposited data

How the results depend on the processing

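The p-values rest on the spread among 3 hashtag samples, and at this depth 7101 of 32285 genes could be tested. Against 56 genes higher and 34 lower, leaving out 1 hashtag gave 12 to 42 higher and 10 to 32 lower. With no replicate block 45 were higher and 26 lower. The DESeq2 Wald test gave 6 and 6; its median trended dispersion was 0.0722 against 0.00338 in edgeR. A score from thinned counts gave 27 and 9, a smooth muscle share of at least 3% gave 8 and 7 on fewer barcodes, barcodes with over 10 to 20% mitochondrial UMIs gave 16 and 8, and no filter on low counts gave 63 and 79, with more genes tested. Where the alternative itself does not give it, the cause was not tested. DESeq2 size factors, depth minimums, other score bins and leaving out the lowest 25% kept both counts within 1.5 times. Mfap4, S100a4, Serpine2 and Timp1 kept their calls in every alternative that tested them. The ratio caller gave member shares of 19.6, 21.7 and 30%. Among clusters with at least 50 members, the highest member share was 25.2% at resolution 0.3 and 56.7% at 1.0.

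Signs turned as follows, on the log2 scale. With over 10 to 20% mitochondrial UMIs, Ccn5 was 0.61, Igfbp2 0.61, Bmpr1b 0.012, Dtna 0.16, Fabp4 -0.073 and Eln 0.12. With the thinned score, Des was 0.28, Cdkn1a 0.0090, Sfrp2 0.27, Egr1 -0.035 and Eln 0.18. With a smooth muscle share of at least 3%, Gadd45g was 0.10, Fn1 -0.15 and Mef2a -0.0039. Over all barcodes Sfrp2 was 0.047 and Eln 0.14, and with no or several hashtags Igfbp2 was 0.070, Sfrp2 0.19 and Eln 0.19. Eln was also -0.10 to 0.024 with 1 hashtag left out, 0.013 for the top 15% and 0.0098 with quartiles within each hashtag. The ratio caller, 0 to 2 haemoglobin UMIs and at most 5% mitochondrial UMIs left under 20 barcodes in a sum (fewest 5, 10 and 0), so the gene tests were not run there. Barcodes with over 10 to 20% mitochondrial UMIs, those with no or several hashtags and the set without immune and endothelial led clusters were added after the data were seen.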

Other observations

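Genes of nuclear-encoded respiration leaned to lower values in members without a call. Of 31 tested, none was called by edgeR or DESeq2, 4 had an unadjusted p under 0.05, 25 had a negative sign and the median log2 fold was -0.09. Cox6c, a subunit of cytochrome oxidase, had 1099, 1252 and 1162 CPM in members and 1137, 1289 and 1180 in the middle. Summed over all barcodes these genes went from 10892 CPM in the lowest 25% through 10700 to 10396 in members.

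Some called genes stood outside the lists. Hbegf, a membrane-bound ligand of the EGF receptor, had 97.0, 149 and 75.2 CPM in members and 41.4, 58.2 and 64.2 in the middle (log2 fold 0.97 ± 0.18, edgeR adjusted p = 0.00039); without hashtag 1 or 2 it was 0.84 and 0.76 and not called. Piezo2, a mechanically gated channel that also led a cluster rich in members, had 62.7, 66.8 and 29.6 CPM against 29.3, 31.0 and 27.4, with overlapping groups, and was not called without hashtag 1 or 2 (0.68 and 0.75). Ace, the angiotensin-converting enzyme, was higher by 0.49 ± 0.12 on the log2 scale (adjusted p = 0.0205) and not called without hashtag 1 or 2 (0.54 and 0.36). Gja1, which encodes connexin 43, was higher by 0.54 ± 0.14 (adjusted p = 0.0246) and not called without hashtag 1 or 3 (0.43 and 0.52). These genes were chosen after their values were seen.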
